A study of Mus musculus with 6 samples.

Results

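The tumour necrosis factor (TNF) superfamily comprises ligands that mostly sit on the cell surface or are shed from it, and the receptors that bind them. Its genes were examined in splenic CD11b-sorted cells of mice given rapamycin or PBS. Members were all genes whose probe set carried exactly 1 platform symbol starting with Tnfsf or Tnfrsf, apart from 1 receptor gene that was not included, together with Tnf, Lta, Ltb, Ltbr, Cd40, Cd70, Cd27, Fas and Fasl. This gave 37 members, 14 ligands and 23 receptors, out of 19938 genes with a probe set of 1 symbol. Each of the 37 had 1 such probe set. Of these, 31 had a mean of at least log2 4.72 over all 6 arrays, the brightness that 13965 genes reached and that marks the genes tested. The 6 dim members were the ligands Lta, Cd70, Fasl, Tnfsf4, Tnfsf8 and Tnfsf18. The probe set listed for both Tnfsf12 and Tnfsf13 carried 3 symbols and is described separately.

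The mice were B6D2F1/J recipients that had been lethally irradiated and then given marrow of B6 donors, depleted of T cells. According to the labels, spleen cells from B6 mice were part of some grafts and not of others, and which mice received them is not stated. Rapamycin, which inhibits the kinase mTOR, was injected into the peritoneum at 1.5 mg/kg on alternate days up to day 10, and control mice received PBS on the same schedule. Each group had 3 mice with 1 array per mouse. The cells are labelled myeloid-derived suppressor cells, but the sort used CD11b beads alone, so the population is defined only by that integrin, which neutrophils, monocytes and macrophages all carry.

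TNF family receptors fall into those with an intracellular death domain, which can start apoptosis or necroptosis through adaptors such as Tradd and Fadd, those that bind Traf adaptors and activate NF-kB, and decoys that bind ligand without passing on a full signal. Myeloid cells are known as a source of TNF and of the B cell survival factor encoded by Tnfsf13b (BAFF), and they carry both TNF receptors. Ltb and Cd27 are best known from lymphocytes.

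The sort marker Itgam (CD11b) averaged 12.4 with PBS and 12.3 with rapamycin on the log2 scale, and all 15 neutrophil markers were above the brightness threshold, with list means between 12.2 and 12.4 in all arrays. All 14 macrophage and all 11 monocyte markers measured were above it as well. Of 13 measured B and plasma cell markers 7 were below it, as were 3 of 16 T cell markers and 5 of 12 markers of NK and cytotoxic cells. Over all genes tested, 617 were higher and 967 lower with rapamycin at a limma adjusted p under 0.05, so that 61.0% of the calls were lower. That share was 71.0% with the arrays aligned to a common median of all probe sets and 44.7% with a common median of the genes tested.

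The comparison of rapamycin with PBS asked which members differed in these cells under mTOR inhibition. Tnfrsf1a, the death domain receptor for TNF (TNFR1), was 1.26-fold higher with rapamycin. The ligand Ltb (lymphotoxin beta) was 1.39-fold lower, and the receptor Tnfrsf26 was 1.31-fold lower. The other 28 members tested did not pass. With 3 of 31 members called (9.68%), the share was close to the 11.3% of all genes tested, of which 4.42% were higher and 6.92% lower. Changes were small throughout: the members' log2 changes ran from -0.63 to 0.38 with a median of 0.0072, against a median of -0.017 over all genes tested. The median size of change, sign aside, was 0.12 for members and 0.090 for all genes. At an unadjusted p under 0.05 stood 13 members (41.9%, 6 higher and 7 lower), compared with 28.2% of all genes. The 3 arrays of each group did not overlap for 12 members (38.7%, 5 higher and 7 lower), compared with 32.0% of all genes (12.6% higher and 19.4% lower). Tnfsf9, among the higher members of both counts, passed the brightness threshold only through its rapamycin arrays.

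**Figure D1:**
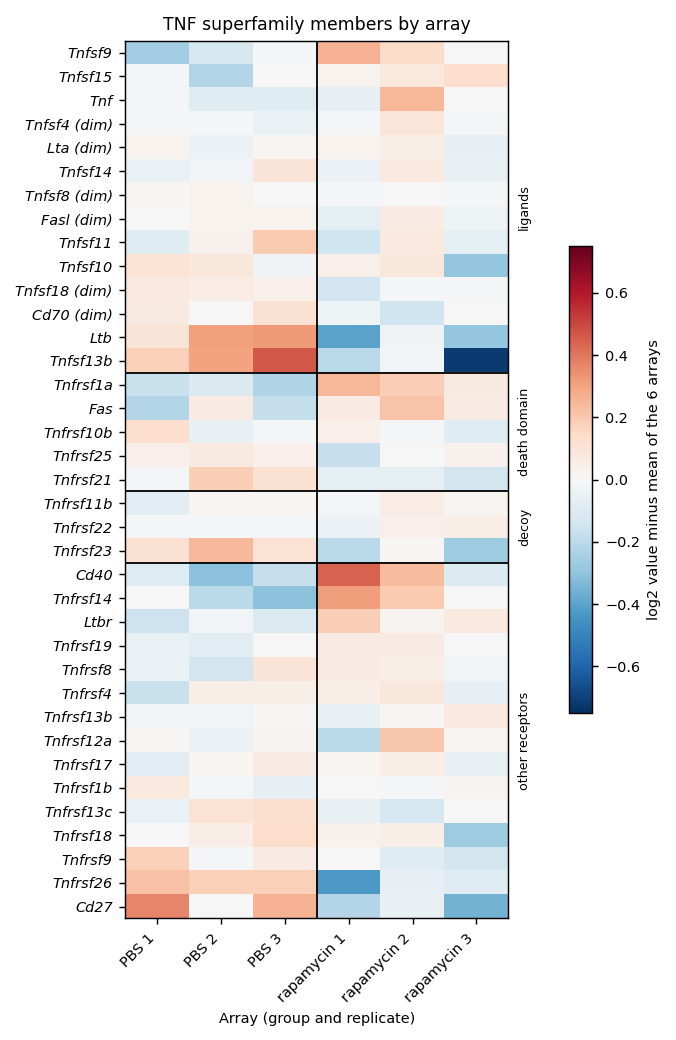
Log2 value of each of the 37 members in each of the 6 arrays, as the difference from that gene's mean over all arrays (colour), with members grouped by role and sorted by their change; "dim" marks the 6 members under the brightness threshold. Ltb, Tnfsf13b, Tnfrsf23, Tnfrsf26 and Cd27 are lower in the rapamycin arrays and Tnfrsf1a is higher, while 21 of the 31 members tested differ by under 0.2 between the group means.

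Sequences before the gene start are shown for Ltb and Tnfrsf1a, which passed the test, for Tnf, the direct neighbour of Ltb, and for Tnfrsf23, a near neighbour of Tnfrsf26. RefSeq promoter entries of assembly GRCm38.p6 matched 29 of the 37 members by gene identifier, and the 250 bases before the gene start are printed 5′ to 3′ on the gene's strand. Tnfrsf26 had no entry. Capitals mark matches on either strand to the kappaB consensus, which NF-kB factors bind, to the TATA box (TATAAA) or to the GC box (GGGCGG). The AP-1 site (TGANTCA) and the core of the interferon-stimulated response element (TTTC, any 2 bases, TTTC) were searched as well, and no 2 matches overlapped in these 4 windows.
Ltb (GRCm38.p6, chr17:35194257-35194506, plus strand): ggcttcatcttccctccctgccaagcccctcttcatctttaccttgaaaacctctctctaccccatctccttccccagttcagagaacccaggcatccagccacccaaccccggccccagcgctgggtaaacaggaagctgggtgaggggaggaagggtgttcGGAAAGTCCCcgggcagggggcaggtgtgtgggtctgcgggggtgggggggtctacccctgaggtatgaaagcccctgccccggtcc
Tnf (GRCm38.p6, chr17:35202008-35202257, minus strand): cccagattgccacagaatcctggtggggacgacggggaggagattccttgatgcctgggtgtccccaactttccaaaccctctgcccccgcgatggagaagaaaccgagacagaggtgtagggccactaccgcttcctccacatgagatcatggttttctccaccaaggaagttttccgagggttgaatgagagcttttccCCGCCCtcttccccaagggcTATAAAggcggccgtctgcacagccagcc
Tnfrsf1a (GRCm38.p6, chr6:125349473-125349722, plus strand): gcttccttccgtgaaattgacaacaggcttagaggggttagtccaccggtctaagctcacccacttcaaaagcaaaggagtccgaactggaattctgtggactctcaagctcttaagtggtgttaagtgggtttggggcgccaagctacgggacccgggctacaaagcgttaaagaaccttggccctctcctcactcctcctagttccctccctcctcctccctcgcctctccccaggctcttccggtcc
Tnfrsf23 (GRCm38.p6, chr7:143685876-143686125, minus strand): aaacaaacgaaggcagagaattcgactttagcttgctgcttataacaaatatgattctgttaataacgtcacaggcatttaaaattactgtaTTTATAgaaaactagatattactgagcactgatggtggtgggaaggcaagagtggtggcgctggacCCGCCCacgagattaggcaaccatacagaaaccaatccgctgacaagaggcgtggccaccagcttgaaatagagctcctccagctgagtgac
The Ltb window held 1 kappaB match, starting 87 bases before the gene start. The Tnf window held a TATA box starting at 29 and a GC box at 49 bases before the start, and the Tnfrsf23 window a TATA box at 158 and a GC box at 92 bases before it. In the Tnfrsf1a window none of the 5 motifs was found. A kappaB match was present in 5% of all 32851 promoter entries and in 4 of the 33 entries of members (12.1%), those of Ltb, Tnfrsf8, Tnfrsf9 and Tnfrsf25. The ISRE core was present in 2.98% of all entries and in 4 of 33 member entries (12.1%), those of Tnfsf13b, Tnfrsf14, Tnfrsf1b and Tnfrsf17. The other motifs were in 12.4% (TATA box), 32.7% (GC box) and 6.75% (AP-1 site) of all entries, and in 18.2%, 39.4% and 15.2% of member entries. These matches describe letters only.

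Tnfrsf1a (probe set 10541895) read 10.64, 10.69 and 10.58 on the PBS arrays and 11.05, 10.99 and 10.88 on the rapamycin arrays, on the log2 scale. All 3 rapamycin arrays lay above all PBS arrays, and the gap exceeded the spread within either group. The means were 10.64 ± 0.058 and 10.97 ± 0.090 (SD, n = 3 each), which differed by 0.33 ± 0.060 (log2, SE; limma adjusted p 0.0182). The call was lost on omitting any array except rapamycin replicate 3. In the fits that lost it, between 0.809% and 5.1% of all genes were called, against 11.3% with all arrays. Limma's adjusted p was 0.0609, 0.0639 and 0.0700 when PBS replicate 1, 2 or 3 was omitted, and 0.0714, 0.0586 and 0.0201 when rapamycin replicate 1, 2 or 3 was. The log2 change stayed between 0.29 and 0.38 in these 6 fits.

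Tnf, the ligand of both TNF receptors, read 9.46, 9.39 and 9.39 with PBS and 9.41, 9.73 and 9.47 with rapamycin. Rapamycin replicate 2 stood apart from the other arrays, and the groups overlapped. The difference was 0.13 ± 0.083 (SE), with a 95% interval from -0.070 to 0.32 and a limma adjusted p of 0.368. Tnfrsf1b (TNFR2), the second TNF receptor, which lacks a death domain, read 9.79, 9.70 and 9.65 with PBS and 9.71, 9.70 and 9.74 with rapamycin. Its difference of 0.0014 had an interval from -0.11 to 0.12, so that a change as large as that of Tnfrsf1a lies outside it. Lta, lymphotoxin alpha, which also binds both receptors, was dim, with values between 4.52 and 4.63 in all 6 arrays.

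Ltb (probe set 10444752) encodes the membrane-bound chain that joins lymphotoxin alpha in the ligand of Ltbr. It read 9.32, 9.53 and 9.54 with PBS and 8.83, 9.20 and 8.93 with rapamycin. The groups did not overlap, and rapamycin replicate 2 came closest to the PBS arrays. The means were 9.47 ± 0.13 and 8.99 ± 0.19 (SD, n = 3 each), which differed by -0.48 ± 0.11 (log2, SE; limma adjusted p 0.0333). Omitting PBS replicate 1, 2 or 3 gave a limma adjusted p of 0.0571, 0.128 and 0.112, and omitting rapamycin replicate 1, 2 or 3 one of 0.117, 0.0269 and 0.0822. Its receptor Ltbr read 8.10, 8.23 and 8.15 with PBS and 8.44, 8.27 and 8.32 with rapamycin. Each rapamycin array was above each PBS array, but the difference of 0.18 ± 0.060 did not pass (limma adjusted p 0.0941).

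Tnfsf13b (BAFF), the ligand that keeps B cells alive, had the most negative change of all members tested. It read 10.08, 10.20 and 10.37 with PBS and 9.69, 9.88 and 9.18 with rapamycin. The groups did not overlap, and rapamycin replicate 3 was the lowest array. The change of -0.63 ± 0.17 (SE) missed the threshold with a limma adjusted p of 0.0581, and it was -0.43 without rapamycin replicate 3. Its adjusted p fell between 0.0363 and 0.0470 under 5 other settings, given in the closing section. Of its receptors, Tnfrsf13b (TACI) differed by 0.018, the BAFF receptor Tnfrsf13c by -0.12 and Tnfrsf17 (BCMA) by 0.0072, with limma adjusted p values of 0.848, 0.268 and 0.950.

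Of the other ligands, Tnfsf9, which binds the T cell costimulatory receptor Tnfrsf9, read 4.54, 4.68 and 4.79 with PBS and 5.06, 4.94 and 4.79 with rapamycin. Its mean of 4.80 lay just above the brightness threshold, with a PBS mean of 4.67 below it and a rapamycin mean of 4.93 above it. Tnfsf9 was therefore tested only through its rapamycin arrays, which favours a positive difference. That difference of 0.26 ± 0.088 (SE) did not pass (limma adjusted p 0.10). Tnfsf15, the ligand of the death receptor Tnfrsf25, differed by 0.16, the death ligand Tnfsf10 (TRAIL) by -0.11, the osteoclast factor Tnfsf11 (RANKL) by -0.092 and Tnfsf14 (LIGHT) by -0.017. Limma's adjusted p of these ran from 0.177 to 0.881. Of the ligands, 0 of 8 tested rose, 1 fell and 7 did not pass (12.5% called, against 11.3% of all genes). The 6 dim ligands were examined in a fit of all 19938 genes, in which 6.32% were called; 0 of the 6 were called by limma, 1 (Tnfsf18, -0.11) had an unadjusted p under 0.05, and their log2 differences lay between -0.12 and 0.048. The probe set shared by Tnfsf12 (TWEAK) and Tnfsf13 (APRIL) read 7.63, 7.54 and 7.66 with PBS and 7.49, 7.34 and 7.55 with rapamycin. It differed by -0.15 ± 0.067 in a fit of all 35556 probe sets (limma adjusted p 0.237), and which of the genes gave its signal cannot be told apart.

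**Figure D2:**
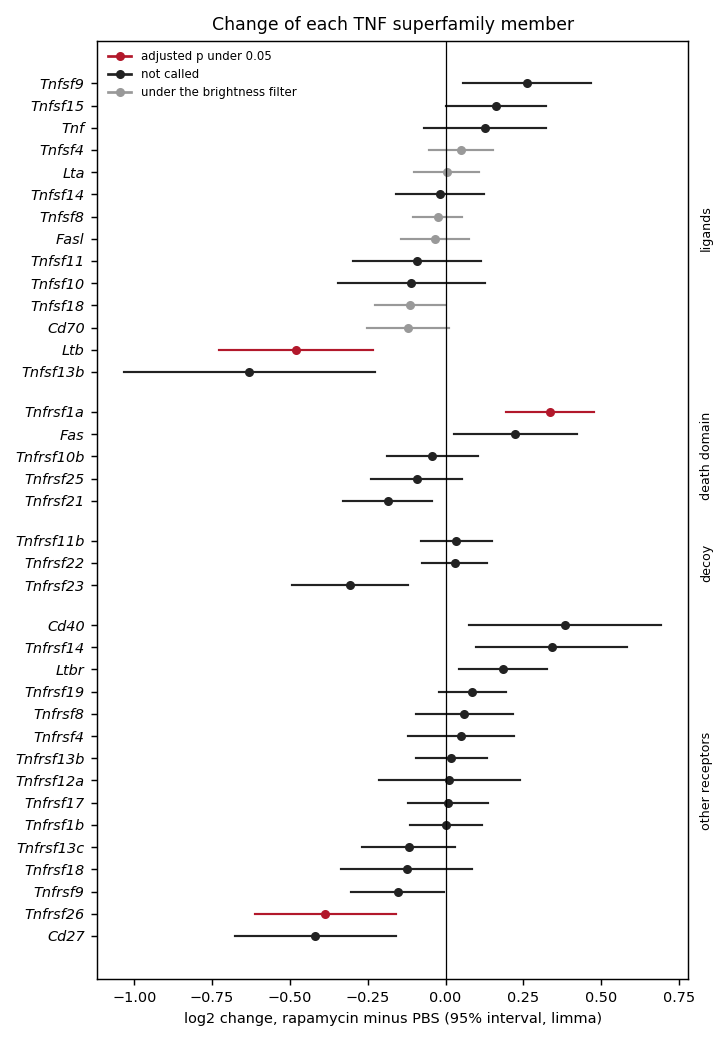
Log2 change (rapamycin minus PBS, n = 3 each) of every member with limma's 95% interval, grouped by role; red marks an adjusted p under 0.05 and grey the 6 dim members, taken from the fit of all genes. Tnfrsf1a lies at 0.33, Tnfrsf26 at -0.39 and Ltb at -0.48, and the interval of Tnfsf13b is the widest, from -1.03 to -0.23.

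Among the 5 death domain receptors, Tnfrsf1a rose and 4 did not pass (20% called, against 11.3% of all genes). Fas, the receptor of the death ligand Fasl, read 8.30, 8.57 and 8.34 with PBS and 8.57, 8.73 and 8.57 with rapamycin. Its groups overlapped, since PBS replicate 2 reached the rapamycin level, and the difference was 0.22 ± 0.085 (SE, limma adjusted p 0.134). Tnfrsf21 (DR6) read 9.53, 9.73 and 9.66 with PBS and 9.47, 9.48 and 9.41 with rapamycin, a difference of -0.19 ± 0.061 (limma adjusted p 0.0932) in groups that did not overlap. The other 2, Tnfrsf25 and the mouse TRAIL receptor Tnfrsf10b, differed by -0.093 and -0.042.

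Tnfrsf22, Tnfrsf23 and Tnfrsf26 are related receptor genes of the mouse that follow each other on chromosome 7, and the first pair is known as decoy receptors of TRAIL. Tnfrsf26 (probe set 10569485) read 8.59, 8.55 and 8.55 with PBS and 7.94, 8.31 and 8.28 with rapamycin. The PBS arrays were close together (SD 0.025) and the rapamycin arrays were spread (SD 0.20), with replicate 1 the lowest. The groups differed by -0.39 ± 0.096 (log2, SE; limma adjusted p 0.0451), and by -0.27 when rapamycin replicate 1 was omitted (0.0486). The adjusted p was 0.132, 0.140 and 0.124 when PBS replicate 1, 2 or 3 was omitted, and 0.0595 and 0.0618 when rapamycin replicate 2 or 3 was. It was also above the threshold when dim genes were kept in the fit (0.0671). Tnfrsf23 read 7.83, 7.96 and 7.82 with PBS and 7.51, 7.72 and 7.45 with rapamycin, again without overlap. Its change of -0.31 ± 0.080 fell just outside the threshold (limma adjusted p 0.0501), and it was called in 9 of 17 alternative fits. Tnfrsf22 read 5.77 in all 3 PBS arrays and between 5.74 and 5.83 with rapamycin, a difference of 0.029 with an interval from -0.076 to 0.13. Whether the probes tell these related genes apart was not tested. The soluble decoy Tnfrsf11b (osteoprotegerin) differed by 0.035.

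**Figure D3:**
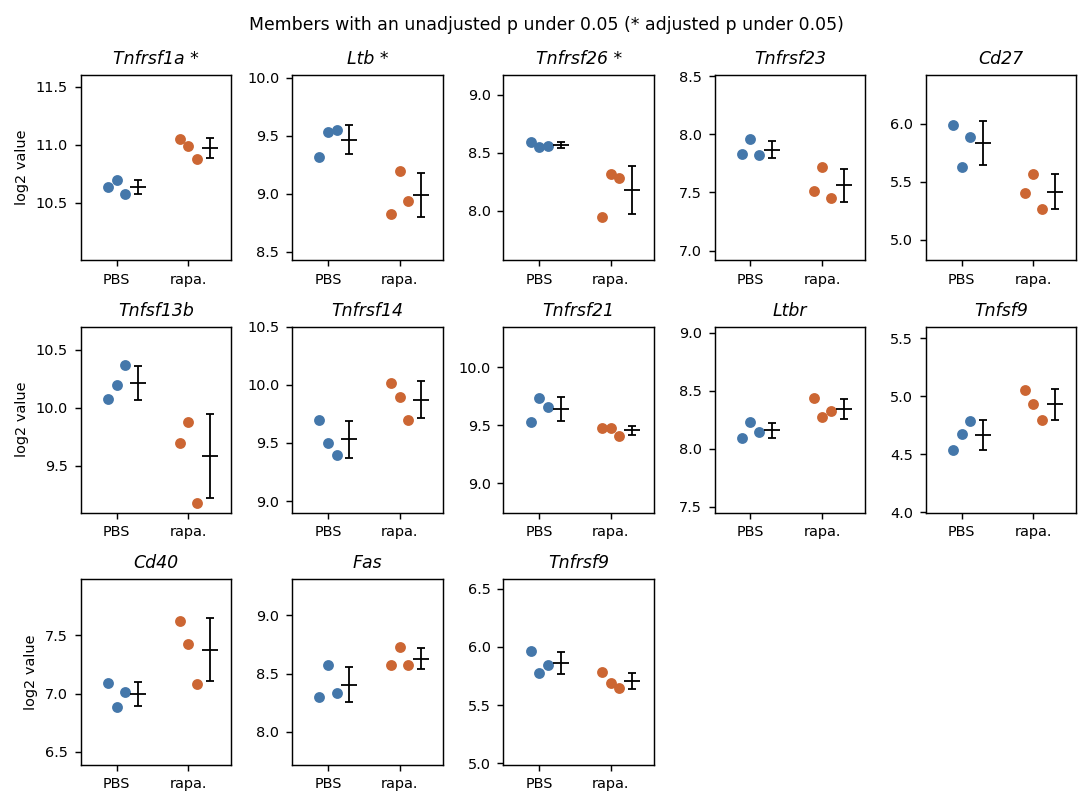
Log2 value per array (points, in the order of replicates 1 to 3) with mean and SD (bars) for the 13 members tested that had an unadjusted p under 0.05, each panel spanning the same height of 1.6 on the log2 scale; an asterisk marks an adjusted p under 0.05. Points of the groups are apart in panels such as Tnfrsf1a, Ltb and Tnfrsf26, and touch or cross for Tnfrsf14, Cd40, Fas and Tnfrsf9.

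Cd40, through which helper T cells activate antigen-presenting cells, had the most positive log2 difference of the members tested. It read 7.09, 6.88 and 7.01 with PBS and 7.63, 7.42 and 7.08 with rapamycin. Rapamycin replicate 3 lay at the PBS level, so the groups overlapped. The difference was 0.38 ± 0.13 (SE) and did not pass (limma adjusted p 0.106), while without rapamycin replicate 3 it was 0.53 with an adjusted p of 0.0263. Tnfrsf14 (HVEM), a receptor of LIGHT, read 9.70, 9.50 and 9.39 with PBS and 10.02, 9.90 and 9.70 with rapamycin. PBS replicate 1 met rapamycin replicate 3, and the difference of 0.34 ± 0.10 did not pass (limma adjusted p 0.0773). It passed with array weights (0.0479) and with the medians of the tested genes aligned (0.0434).

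Cd27, a costimulatory receptor of T cells that also marks NK and B cell subsets, read 5.99, 5.63 and 5.89 with PBS and 5.40, 5.57 and 5.27 with rapamycin. All rapamycin arrays were lower than all PBS arrays, the closest pair being PBS replicate 2 and rapamycin replicate 2. The difference of -0.42 ± 0.11 (SE) did not pass (limma adjusted p 0.0530). Its adjusted p fell between 0.0341 and 0.0490 under 4 of 16 other settings, given in the closing section, and reached 0.203 under another. Tnfrsf9, an activation receptor of T and NK cells, read 5.97, 5.78 and 5.85 with PBS and 5.78, 5.69 and 5.65 with rapamycin, a difference of -0.15 ± 0.064 (limma adjusted p 0.168) in groups that met at 5.78. The T cell costimulatory receptors Tnfrsf4 (OX40) and Tnfrsf18 (GITR) differed by 0.049 and -0.12, Tnfrsf8 (CD30) by 0.061, the TWEAK receptor Tnfrsf12a by 0.012 and Tnfrsf19 by 0.086, with limma adjusted p values between 0.266 and 0.953. Of the 23 receptors tested 1 rose, 1 fell and 21 did not pass (8.7% called, against 11.3% of all genes).

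Markers of lymphocytes are given here beside Ltb and Cd27, and their counts are read against the 11.3% of all genes that were called, 6.92% lower and 4.42% higher. Of 13 T cell markers above the threshold, 3 fell (23.1%: Ubash3a, Cd8a and Cd3g), 0 rose and 10 did not pass, with a median log2 difference of -0.13. The mean of all 16 measured T cell markers lay between 5.29 and 5.37 with PBS and between 5.09 and 5.18 with rapamycin, without overlap. Of 7 NK and cytotoxic markers above the threshold, Gzmb (-0.76 ± 0.11, SE) and Nkg7 (-0.66 ± 0.12) fell and 5 did not pass (28.6% called). Among those 5 was Klrk1, the gene of the activating receptor NKG2D, which stood higher in all rapamycin arrays than in all PBS arrays (0.52 ± 0.18, limma adjusted p 0.107). The mean of all 12 lay between 5.51 and 5.57 with PBS and between 5.40 and 5.49 with rapamycin. Of 6 B and plasma cell markers above the threshold Cd79b fell (-0.32 ± 0.058) and 5 did not pass, a share of 16.7%. Xbp1, a transcription factor of plasma cells, was higher without overlap but did not pass (0.19 ± 0.074, limma adjusted p 0.145), and the B cell list means overlapped (5.05 to 5.11 with PBS, 5.02 to 5.13 with rapamycin). On omitting PBS replicate 2 or 3, 0 markers of these 3 lists were called, in fits that called 0.809% and 2.91% of all genes. The 3 T cell calls were 1 when PBS replicate 1 was omitted (5.01% of all genes called) and 2 for rapamycin replicate 3 (9.57%). They were 0 for rapamycin replicate 1 or 2 (2.64% and 5.1% of all genes). Calls on B cell markers were 0 also when PBS replicate 1 or rapamycin replicate 1 was omitted, and the 2 cytotoxic calls were 1 for PBS replicate 1. Without rapamycin replicate 3 the B cell list held 1 call higher and 1 lower. The part of carried-over lymphocytes in the values of Ltb and Cd27 was not tested, and in bulk cells fewer cells of a type and less RNA per cell cannot be told apart.

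Markers of myeloid cells are given beside the members that such cells express, among them Tnfsf13b, Tnfrsf1a and Tnf. Their counts are read against the same 11.3% of all genes called, 6.92% lower and 4.42% higher. Of 11 monocyte markers Ace (-0.57 ± 0.13, SE), Cd300e (-0.49 ± 0.11) and Ccr2 (-0.34 ± 0.081) fell, Ms4a6c rose (0.38 ± 0.084) and 7 did not pass, so that 36.4% were called. The monocyte list mean lay between 9.03 and 9.18 with PBS and between 8.96 and 9.03 with rapamycin, and no rapamycin array reached a PBS array. Of 14 macrophage markers Cd68, a lysosomal protein, rose (0.83 ± 0.091). The mannose receptor Mrc1 (-1.04 ± 0.14) and the iron exporter Slc40a1 (-0.38 ± 0.048) fell, and 11 did not pass (21.4% called). Of the 14, 10 had a positive and 4 a negative difference, with a median of 0.11. Timd4 (0.71), Mertk (0.40) and C1qc (0.47) were higher without overlap but were not called (limma adjusted p 0.0588 to 0.147). The list means overlapped (8.0 to 8.35 with PBS, 8.23 to 8.39 with rapamycin). Of 15 neutrophil markers 2 rose, Il1r2 and Trem1, and 13 did not pass (13.3% called). The basophil markers Mcpt8, Cpa3 and Prss34 were lower without overlap, by -0.43 to -0.70, and did not pass (limma adjusted p 0.0660 to 0.0684). Of 5 basophil and mast cell markers above the threshold 60% did not overlap, compared with 32.0% of all genes (19.4% lower). The mean of all 8 basophil and mast cell markers lay between 5.53 and 5.66 with PBS and between 5.22 and 5.50 with rapamycin. Of 3 eosinophil markers above the threshold Alox15, a lipoxygenase gene that macrophages also express, rose by 2.47 ± 0.27 and 2 did not pass (33.3% called). Of 5 erythroid markers Slc4a1 rose (20% called). Of 9 dendritic cell markers above the threshold Bst2 fell, with a change of -0.25, and 8 did not pass (11.1% called). Among those 8, Clec9a was higher without overlap (0.54 ± 0.15, limma adjusted p 0.0631), at a mean of 4.80 just above the threshold. Its PBS mean of 4.53 lay below the threshold and its rapamycin mean of 5.07 above. Clec9a was thus tested only through its rapamycin arrays, which favours a positive difference. Of the 9 differences 3 were positive and 6 negative. The 4 monocyte calls were 2 when PBS replicate 1 was omitted, 1 for rapamycin replicate 2 or 3 and 0 for PBS replicate 2 or 3 or rapamycin replicate 1, and the 3 macrophage calls were 0 for PBS replicate 2. The 2 neutrophil calls were 3 when rapamycin replicate 3 was omitted and 1 for each other array. Basophil and mast cell calls were 3, all lower, without rapamycin replicate 3 and 0 without any other array, the erythroid call was 0 for PBS replicate 2 and 2 for rapamycin replicate 2, and the count of dendritic cell markers called was 0 for PBS replicate 2 or 3 or rapamycin replicate 1 or 2, and 2 for rapamycin replicate 3. Of all genes, 5.01%, 0.809% and 2.91% were called with PBS replicate 1, 2 or 3 omitted. With rapamycin replicate 1, 2 or 3 omitted the shares were 2.64%, 5.1% and 9.57%. The part of the mix of myeloid cells in the members' values was not tested.

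**Figure D4:**
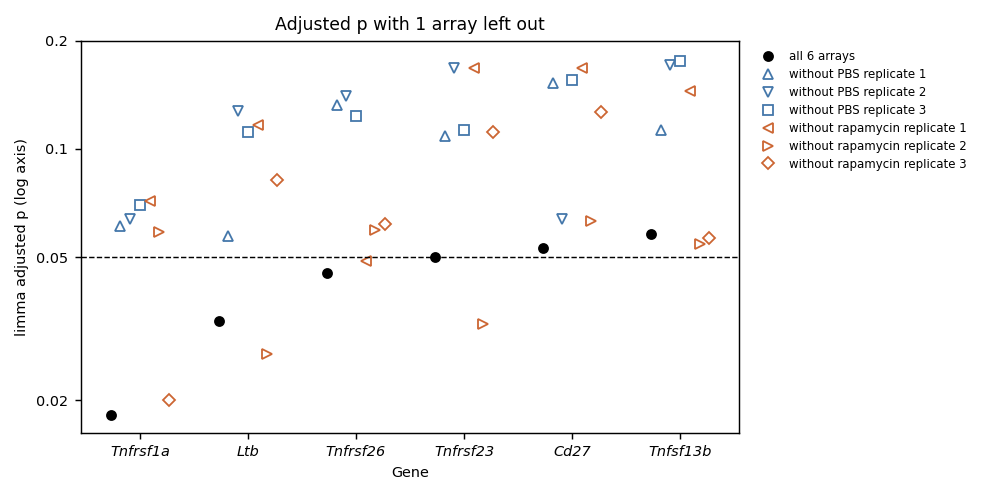
Limma's adjusted p (log axis) for the 6 members with the lowest p-values, with all 6 arrays (black) and with each array left out in turn (open symbols, PBS blue and rapamycin orange); the dashed line is the threshold of 0.05. Tnfrsf1a, Ltb and Tnfrsf26 lie under the line with all arrays, and each has only 1 open symbol under it.

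In no ligand and receptor pair among the members did both partners pass the test. Ltb fell while the interval of its receptor Ltbr ran from 0.043 to 0.33. Tnfrsf1a rose while the interval of Tnf included 0. For Tnfsf13b the estimate was -0.63 beside intervals of its 3 receptors that all included 0. Tnfsf9, bright enough for testing only through its rapamycin arrays, stood at 0.26 and its receptor Tnfrsf9 at -0.15, neither past the test. Fas stood at 0.22 beside a dim Fasl.

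Many members lie side by side in the genome. By the order of protein-coding genes in GRCm38.p6, 21 of the 37 members fell into 8 groups of neighbours with at most 3 other genes between them. Ltb, Tnf and Lta follow each other directly on chromosome 17 and stood at -0.48, 0.13 and 0.0030. Cd27, Ltbr and Tnfrsf1a, with 1 gene between each, lie on chromosome 6 and stood at -0.42, 0.18 and 0.33. On chromosome 7, Tnfrsf26, Tnfrsf22 and Tnfrsf23 stood at -0.39, 0.029 and -0.31. In the other 5 groups no member passed the test.

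**Figure D5:**
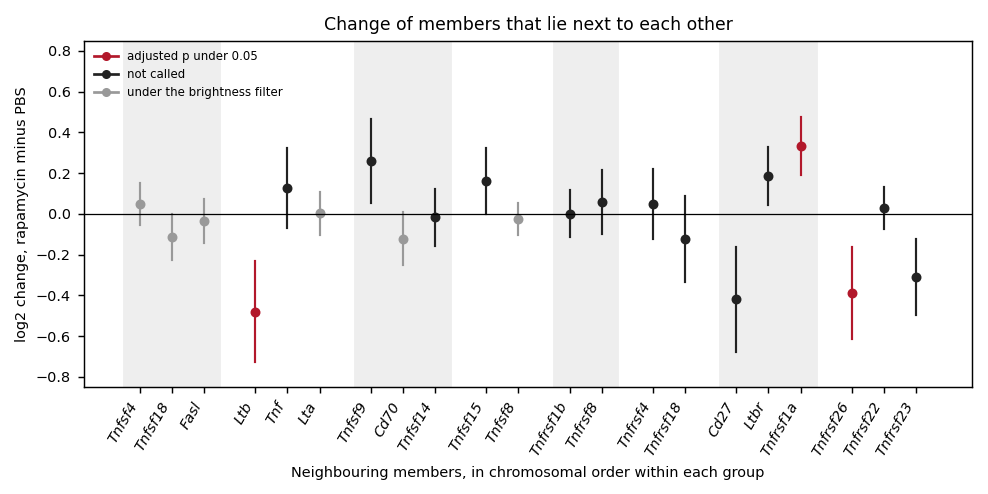
Log2 change (rapamycin minus PBS, n = 3 each) with limma's 95% interval for the 21 members that lie beside another member, in chromosomal order within each of 8 groups (bands; distances are not to scale). In the groups of Ltb, of Cd27 and of Tnfrsf26, neighbours differ in sign or size.

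Downstream of the receptors, 37 of 41 listed signalling genes were measured and above the threshold: 1 rose, 2 fell and 34 did not pass (8.11% called, against 11.3% of all genes), with a median log2 difference of 0.0073. Ripk3, the kinase of necroptosis, read 8.61, 8.49 and 8.43 with PBS and 8.96, 8.74 and 8.89 with rapamycin, a rise of 0.36 ± 0.073 (SE) at a limma adjusted p of 0.0263. Nfkbia, the NF-kB inhibitor, went from 10.90, 10.99 and 10.98 to 10.65, 10.52 and 10.72, a change of -0.33 ± 0.062 (limma adjusted p 0.0213). The ubiquitin ligase Traf6 changed by -0.27 ± 0.063 (0.0375). The 3 calls fell to 0 on omitting PBS replicate 2 or 3 or rapamycin replicate 1, and to 1 on omitting PBS replicate 1. Of all genes, those fits called 0.809%, 2.91%, 2.64% and 5.01%, in that order.

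Of 7 genes of shedding and processing above the threshold, Rhbdf2 rose by 0.34 ± 0.076 (SE, limma adjusted p 0.0354) and 6 did not pass. Rhbdf2 encodes iRhom2, which brings the TNF-shedding protease Adam17 to the cell surface. Of 12 genes that control TNF mRNA, Rc3h1 (Roquin-1, which promotes decay of TNF mRNA) rose by 0.30 ± 0.043, and the kinase Mapk14 (-0.21 ± 0.045) and the RNA-binding protein Khsrp (-0.22 ± 0.054) fell. Of 29 genes that TNF is known to induce, Cxcl10 rose (0.67 ± 0.15), Junb (-0.46 ± 0.092), Nfkbia and Ccl3 (-0.31 ± 0.072) fell and 25 did not pass. The list median was 0.054, with 17 differences positive and 12 negative. At an unadjusted limma p under 0.05 stood 8 higher and 4 lower (41.4%, against 28.2% of all genes). Of 9 genes that carry out apoptosis, Casp6 rose by 0.60 ± 0.13 and 8 did not pass. The percentages called were 14.3%, 25%, 13.8% and 11.1%, against 11.3% of all genes. The 9 calls of these 4 lists became 0 on omitting PBS replicate 2 (0.809% of all genes called). They became 1 on omitting PBS replicate 3 (2.91%) or rapamycin replicate 1 (2.64%), and 3 on omitting PBS replicate 1 (5.01%) or rapamycin replicate 2 (5.1%). On omitting rapamycin replicate 3 (9.57%) the count was again 9, but not of the same calls. It held 6 higher and 3 lower, against 4 higher and 5 lower with all arrays.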

How the data were processed

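Total RNA of each mouse was read on 1 array. The authors' deposited values are log2 expression per probe set, made with RMA in Affymetrix Expression Console per the submitters' processing notes; no versions are named in the sources used here. As RMA equalises the arrays' distributions, a shift of most genes would be lost. Values ran from 2.71 to 14.2 and were used unchanged. Array medians were 5.428, 5.419 and 5.430 with PBS and 5.442, 5.455 and 5.450 with rapamycin. Each rapamycin median thus lay slightly above each PBS median. Arrays have no sequencing depth, and 3 per group limit the precision. Replicates are separate mice per the labels.

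Probe sets were named from the 2016 platform annotation (21789 of 35556 with 1 symbol, 1621 with several, 12146 unnamed). For each gene the probe set with the highest mean was taken, and the 5973 genes under the 30th percentile (log2 4.72) were set aside. The groups were compared with limma 3.58.1 (lmFit, eBayes) in R 4.3.3, 2-sided, with Benjamini-Hochberg adjustment over 13965 genes. On simulated data for this comparison (13965 genes) 25 of 50 genes changed by 0.3, 50 of 50 changed by 0.6 and 50 of 50 changed by 1 (log2) were recovered, with 7 false among 132 calls.

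Named members are those called, those at an unadjusted p under 0.05, the 6 brightest and partners of called members; of each pathway list, up to 4 called genes. All other members are given by value or range. Members, gene lists, tests and settings were chosen with earlier results of these data known. Of 233 list entries, 216 were measured. Promoter letters and gene order came from RefSeq (GRCm38.p6). The settings were other filters, scalings, probe set rules, variance models, array weights, the replicate block and leaving out each array; 1 scaling and the fit of all probe sets were added after seeing the data. Figures used matplotlib 3.10.9.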

Additional observations from a re-analysis of the deposited data

How the results depend on the processing

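Over 17 alternatives (16 for Tnfsf9 and Cd27), 205 of 253 values of 15 members kept direction and side of the threshold, 20 lost their call, 23 gained a call and 5 changed sign. The sign changes were those of Tnfrsf1b, which was -0.032 after quantile normalization again, -0.022 with array medians aligned, and -0.030 to 0.039 with an array left out. Tnfrsf1a and Ltb were called in 11 of 17 alternatives and Tnfrsf26 in 9. The causes were not tested, except that leaving out an array also leaves fewer samples.

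The count of members called higher (1 in the reported fit) was 2 with array weights or with the medians of tested genes aligned (added after seeing the data), 3 with the replicate block, 0 with an unmoderated variance, and 0 to 2 with an array left out. The count called lower (2) was 1 without a filter on dim genes or with the medians of tested genes aligned. It was 3 with the mean of all probe sets or the replicate block, and 4 with the 50th percentile filter, every probe set on its own or array weights. It was 5 after quantile normalization again, with array medians aligned, or with a trend and robust variance, 0 with an unmoderated variance, and 0 to 2 with an array left out. The share of all genes called was 11.3% in the reported fit, 6.32% without a filter and 17.9% with the 50th percentile filter. Quantile normalization again gave 14%, array medians aligned 13.5%, array weights 13.2%, a trend and robust variance 12.3% and the replicate block 12.1%. The medians of tested genes aligned gave 11.3%, the mean of all probe sets 11.4%, and every probe set on its own 12.6% of probe sets. With an array left out the share ran from 0.809% to 9.57%. With the unmoderated variance 86 genes of 13965 were called. In that fit 8 of 31 members and 3091 of 13965 genes had an unadjusted p under 0.05. The count of signalling genes called (3) was 5 after quantile normalization again, with array medians aligned, with array weights or with the replicate block, 0 with an unmoderated variance, and 0 to 3 with an array left out.

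With the replicate block 768 genes were higher and 923 lower, and the members called were Fas (adjusted p 0.0454), Tnfrsf14 (0.0141), Tnfrsf23 (0.0199), Ltb, Tnfrsf1a and Tnfrsf26. Same-numbered arrays deviated from their group means with correlations of 0.26, 0.010 and 0.046, and not every array correlated best with its own number, so the numbers were not taken as pairs. Over all genes, calls without PBS replicate 2 fell to 52 higher and 61 lower. Tnfsf13b was called with the 50th percentile filter (0.0423), quantile normalization again (0.0363), array medians aligned (0.0417), trend and robust variance (0.0470) and array weights (0.0453). Cd27 was called with quantile normalization again (0.0341), array medians aligned (0.0344), every probe set on its own (0.0490) and trend and robust variance (0.0459), and had its highest adjusted p (0.203) with an unmoderated variance. At a log2 change of 0.3, the self-test on simulated data recovered 25 of 50 genes. It made 132 calls, against 1584 in the real comparison, so that share need not hold for the real data. Small changes can be missed, and the 6 dim members lie in the range of brightness that was set aside.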
